A study of Mus musculus with 8 samples.

Results

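The expression of 10 genes of the NRF2 antioxidant programme was followed in cultured splenic myeloid cells, namely the factor gene *Nfe2l2* and *Nqo1*, *Gclm*, *Gclc*, *Txnrd1*, *Prdx1*, *Srxn1*, *Gsr*, *Cat* and *Sod2*. Every probe set of the array whose only gene symbol was one of these 10 was used. This gave 19 probe sets of 9 genes, out of 22626 probe sets tested. *Prdx1* had none, because its 5 probe sets were all assigned to the pseudogene *Gm21399* as well, and it is not described. The cells came from spleens of 4 male *Tff2*-/- mice on the C57BL/6 background, 16 weeks old, that had received 3% DSS, a chemical that injures the colon, for 5 days and, before they were killed, plain water for a further 14 days. CD11b+Gr-1+ cells were sorted, and those of a given mouse were split over both kinds of culture, kept for 7 days. The rTFF2 cultures (n = 4) had GM-CSF, the myeloid growth factor Csf2, plus 3 μM recombinant mouse TFF2, and the control cultures (n = 4) had GM-CSF alone. GM-CSF was at 5 nM by the sample labels, while the study's methods give a mass concentration that was not compared with it. Cells of all 8 cultures therefore lacked *Tff2*, had been exposed to DSS in the mouse and to GM-CSF in the dish, and no culture without GM-CSF or from a wild-type mouse was included. Each culture was measured on 1 Affymetrix array, and all values are GCRMA signals on the log2 scale, so a difference of 1 is a doubling.

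NRF2, the product of *Nfe2l2*, is a transcription factor that the adaptor KEAP1 normally marks for degradation. Oxidants and electrophiles modify KEAP1, NRF2 then accumulates, and with a small MAF protein it binds antioxidant response elements near genes of glutathione synthesis, thioredoxin recycling and quinone detoxification. In myeloid cells the programme is known for protecting the cell from the oxidants of its own respiratory burst. *Cat* and *Sod2* are antioxidant genes that are also governed by other factors, NF-kB among those of *Sod2*.

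In these data, glutathione reductase and mitochondrial superoxide dismutase were clearly higher with rTFF2, *Nqo1*, *Gclm* and a *Srxn1* probe set were slightly higher in the comparison within mice, and *Nfe2l2* and *Gclc* had small positive differences that did not pass. *Cat* had small negative differences that did not pass. With limma, paired by mouse and adjusted over all probe sets (threshold of 0.05), 8 of the 19 probe sets were higher with rTFF2 and 0 were lower. Over all probe sets, 25.7% passed, 13.7% higher and 12% lower, so the share of higher members lay above the background and that of lower members below it. The 8 probe sets belonged to 5 of the 9 genes. At an unadjusted p under 0.05 limma gave 12 higher and 1 lower (18.9% and 18.6% of all probe sets), and without the pairing it called 5 (against 21.8% of all probe sets), all higher and all among the 8. The median difference of the 19 probe sets was 0.23, beside -0.02 over all probe sets. The members were chosen with results of these arrays known, so these counts describe the list and are no test of it. In RNA of a whole culture, fewer cells of a type and less RNA per cell cannot be told apart.

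**Figure D1:**
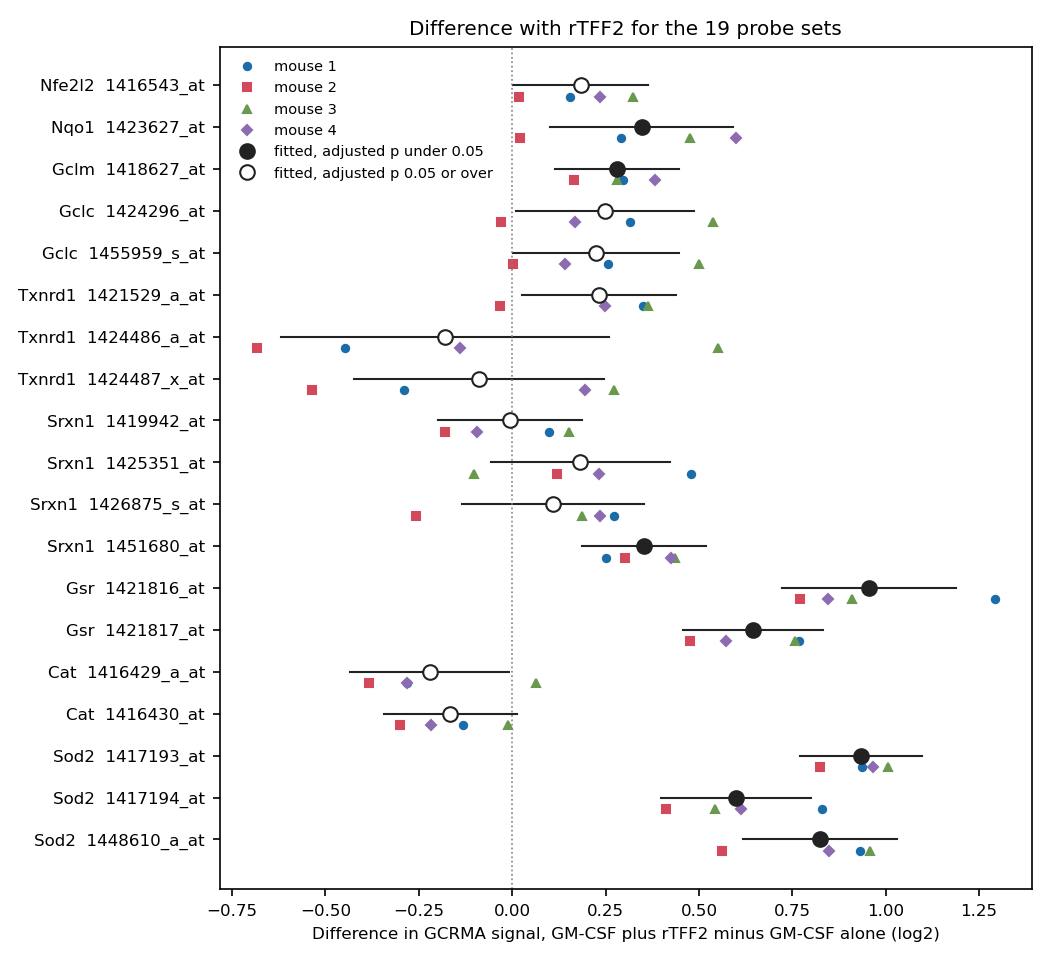
Difference in GCRMA signal (log2, horizontal axis), rTFF2 minus control culture, for the 19 probe sets, with the fitted value as a circle (filled where the adjusted p was under 0.05), its 95% interval as a line and the 4 mice as coloured symbols. Both *Gsr* and all 3 *Sod2* probe sets lie between 0.60 and 0.96, and the red squares of mouse 2 are farthest left in 17 of the 19 rows.

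Matches to the antioxidant response element core were looked for in the RefSeq promoter table of build GRCm38.p6, which holds 250 bases before and 50 after each annotated start, and 8 of the 10 genes had an entry there. The core was spelled TGACNNNGC and the related AP-1 element TGANTCA, both searched on both strands. They can overlap, since a TGACTCA or TGAGTCA may be part of a core. The core was in promoters of 5 of the 8 genes, *Nfe2l2*, *Gclm*, *Txnrd1* (1 of its 3 promoters), *Prdx1* and *Srxn1*, and in 12.4% of all 32851 promoters (14% of genes). The AP-1 element was in promoters of *Prdx1* and *Srxn1*, and in 7.81% of all promoters (8.97% of genes). *Nqo1*, *Cat* and *Sod2* had neither in this window. A match is a description of the letters and not a measured binding site. The matched stretches of measured genes before the start are shown because the core is the sequence by which NRF2 targets are usually recognised and, for *Srxn1*, because its AP-1 elements are the matches before the start, with the matches in capitals and positions counted back from the start of transcription:
Nfe2l2, core, -250 to -216, chr2:75704879-75704913, minus strand: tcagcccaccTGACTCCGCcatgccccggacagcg
Gclm, core, -150 to -110, chr3:122245407-122245447, plus strand: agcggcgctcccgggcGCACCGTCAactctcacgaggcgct
Txnrd1, core, -108 to -68, chr10:82859098-82859138, plus strand: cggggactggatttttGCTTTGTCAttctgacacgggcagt
Srxn1, 2 AP-1 elements, -112 to -29, chr2:152105412-152105495, plus strand: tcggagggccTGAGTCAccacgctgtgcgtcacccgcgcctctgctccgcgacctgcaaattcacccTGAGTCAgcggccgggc
The *Gclm* and *Txnrd1* cores read on the opposite strand. The only *Srxn1* match to the core as spelled here lay after the start, at 29 to 37. A core beginning with TGAG in place of TGAC was not searched for. The *Srxn1* AP-1 element at -45 to -39 is followed by gc and would match such a spelling.

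*Nfe2l2* itself was strongly and evenly expressed. Its probe set (1416543_at) had signals of 11.91, 11.85, 11.93 and 11.81 in the rTFF2 cultures of mice 1 to 4, against 11.76, 11.84, 11.60 and 11.58 in the control cultures of mice 1 to 4. The groups overlapped only through the control culture of mouse 2. The difference was positive in 4 of 4 mice and averaged 0.18 (standard error 0.08, 95% interval 0.00 to 0.36), a 1.14-fold level, and did not pass (adjusted p = 0.13 from limma).

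Glutathione is made in 2 steps, of which the first and limiting one is carried out by glutamate–cysteine ligase, with a catalytic subunit (*Gclc*) and a modifier subunit (*Gclm*). *Gclm* (1418627_at) stood at 11.04, 11.51, 10.95 and 11.07 in the rTFF2 cultures of mice 1 to 4, against 10.75, 11.34, 10.67 and 10.69 in the control cultures. Mouse 2 was highest in both groups, and the groups overlapped. Within mice the differences were 0.30, 0.17, 0.28 and 0.38, and their mean of 0.28 (standard error 0.07, 1.22-fold) passed in the paired fit (adjusted p = 0.026 from limma). Without the pairing the same difference had an adjusted p of 0.29, and with 1 mouse left out it passed only without mouse 2 (adjusted p = 0.035), being 0.093, 0.083 and 0.095 without mouse 1, 3 or 4. *Gclc* had positive mean differences on its 2 probe sets, and neither passed. The first (1424296_at) had 7.91, 8.09, 7.66 and 7.40 in the rTFF2 cultures of mice 1 to 4, against 7.59, 8.12, 7.12 and 7.24 in the control cultures, a mean difference of 0.25 (95% interval 0.01 to 0.49, adjusted p = 0.12). The second (1455959_s_at) gave 0.22 (adjusted p = 0.13). In mouse 2 neither probe set differed by more than 0.03, while the other mice lay between 0.14 and 0.54.

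Glutathione reductase, encoded by *Gsr*, returns oxidised glutathione to its reduced form with NADPH, and it was among the members that differed most. On the first probe set (1421816_at) the rTFF2 cultures of mice 1 to 4 had signals of 11.32, 11.17, 11.08 and 11.10, against 10.02, 10.40, 10.17 and 10.25 in the control cultures. Every rTFF2 culture lay above every control culture. Over all probe sets, 12.8% had this order without overlap, and 5 of the 19 members did. The opposite order held for 12.7% of all probe sets and 0 members. *Gsr* rose by 0.96 (standard error 0.10), a 1.94-fold level (adjusted p = 9.3e-04 from limma), in 4 of 4 mice. The second probe set (1421817_at) had 11.70, 11.65, 11.56 and 11.52 in the rTFF2 cultures, against 10.93, 11.17, 10.80 and 10.95 in the control cultures, a 1.56-fold level (difference 0.64, standard error 0.08, adjusted p = 0.0017). Mouse 2 had the smallest difference on both, 0.77 and 0.48.

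Thioredoxin reductase 1, the cytosolic selenoenzyme that keeps thioredoxin reduced, is encoded by *Txnrd1* and was measured well by 1 probe set (1421529_a_at). It had 10.79, 10.75, 10.54 and 10.49 in the rTFF2 cultures of mice 1 to 4, against 10.44, 10.78, 10.18 and 10.24 in the control cultures. The difference was 0.23 (95% interval 0.03 to 0.44, 1.17-fold) and did not pass (adjusted p = 0.098), with mouse 2 at -0.03 and the other mice at 0.25 to 0.36. Without mouse 2 it was 0.32 and passed (adjusted p = 0.035). The other 2 probe sets of *Txnrd1* were dim, at 2.74 to 3.56 in the rTFF2 cultures and 2.54 to 4.17 in the control cultures, around the background level of 3.37 that was set from 43 genes of other tissues. They had differences of -0.18 and -0.09 that did not pass (adjusted p = 0.53 and 0.69), so the probe sets of this gene differ in sign.

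Sulfiredoxin, encoded by *Srxn1*, repairs peroxiredoxins that peroxide has over-oxidised, and its 4 probe sets did not give the same picture. The 1 that passed (1451680_at) was low, at 4.67, 4.95, 4.32 and 4.45 in the rTFF2 cultures of mice 1 to 4, against 4.42, 4.65, 3.89 and 4.02 in the control cultures. The difference was 0.35 (standard error 0.07, 1.28-fold, adjusted p = 0.011 from limma) and positive in 4 of 4 mice. It had an adjusted p of 0.22 without the pairing and 0.052 without mouse 3. The brightest probe set (1426875_s_at), whose suffix marks probes that may match transcripts of more than 1 gene, had 7.84, 7.70, 7.44 and 7.29 in the rTFF2 cultures, against 7.57, 7.96, 7.25 and 7.06 in the control cultures. Its difference of 0.11 (95% interval -0.13 to 0.35) did not pass (adjusted p = 0.49), with mouse 2 at -0.26 and the other mice at 0.19 to 0.27. The remaining probe sets gave 0.18 (1425351_at, adjusted p = 0.24) and -0.01 (1419942_at, adjusted p = 0.97), and 1419942_at lay at or under the background level on 7 of 8 arrays.

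*Nqo1* encodes a quinone reductase and is a classical readout of NRF2 activity. Its probe set (1423627_at) varied more between mice than between groups. The rTFF2 cultures of mice 1 to 4 had 6.45, 7.26, 6.34 and 5.93, against 6.16, 7.24, 5.87 and 5.33 in the control cultures. Mice 1 to 4 kept the order 2, 1, 3 and 4 in both groups, from highest to lowest, and the level was 6.49 ± 0.56 with rTFF2 and 6.15 ± 0.80 with GM-CSF alone (SD, n = 4 each). The differences within mice were 0.29, 0.02, 0.48 and 0.60, with a mean of 0.35 (standard error 0.10, 1.27-fold) that passed narrowly in the paired fit (adjusted p = 0.049 from limma). The call was lost without the pairing (adjusted p = 0.58), after median centring of the arrays (0.068), after a second quantile normalization (0.095), with an offset on the linear scale (0.099), with a trended and robust prior (0.061), and without mouse 1, 3 or 4 (0.12, 0.16 and 0.16). Over all the alternatives the adjusted p ran from 0.018 to 0.92.

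**Figure D2:**
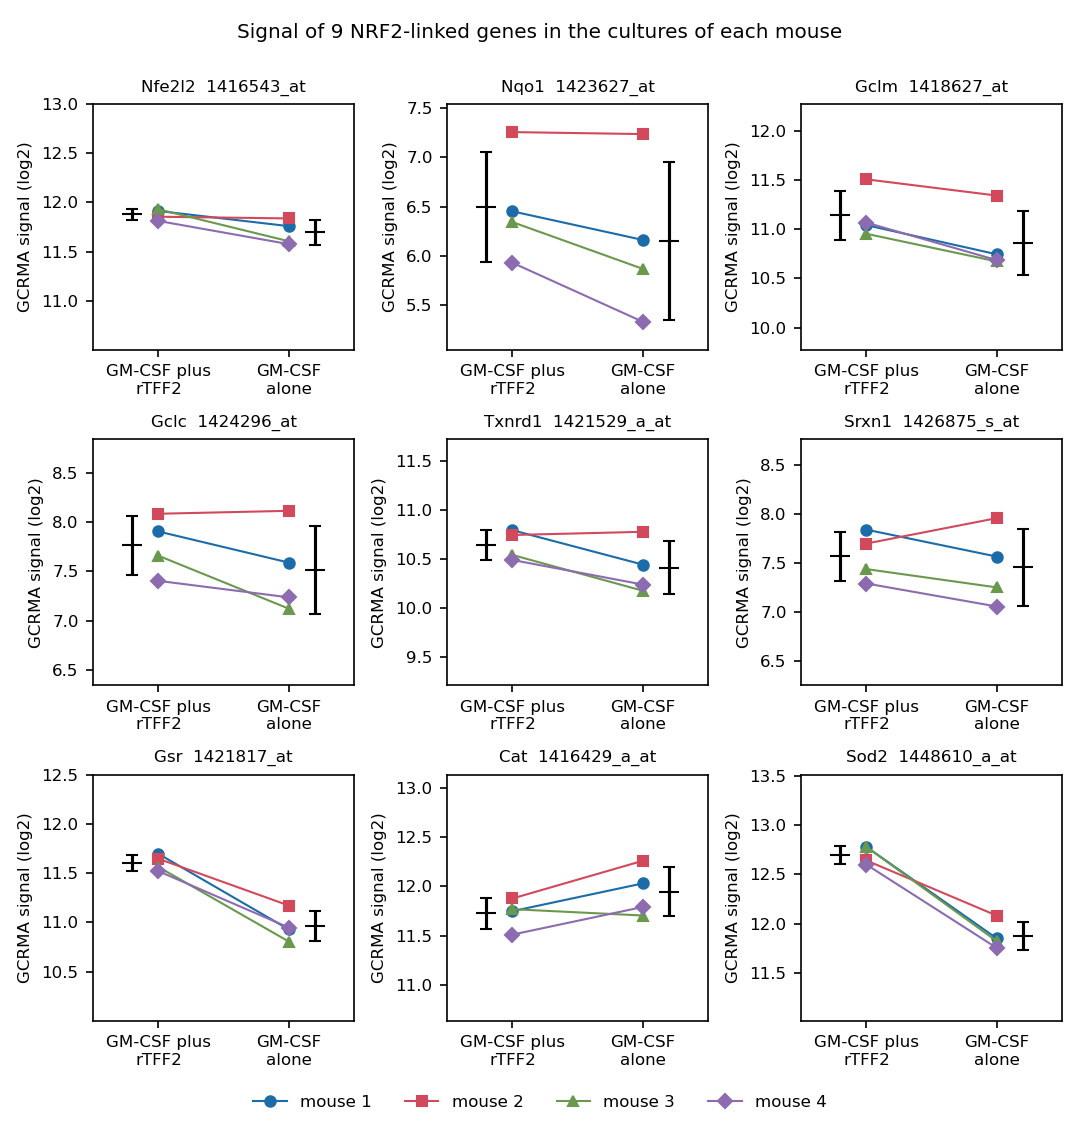
GCRMA signal (log2) of 9 genes, each by its brightest probe set, by culture, where each coloured line belongs to 1 mouse and black bars give mean and SD (n = 4). All vertical axes have the same span, and the line of mouse 2 is nearly flat for *Nqo1* (7.26 with rTFF2 and 7.24 with GM-CSF alone). All 4 lines slope the same way for *Gsr* and *Sod2*, and with smaller mean differences for *Nqo1*, *Gclm* and *Nfe2l2*.

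Of the enzymes that remove oxygen radicals directly, *Sod2*, which encodes the manganese superoxide dismutase of mitochondria, was higher on all 3 probe sets. The first (1417193_at) had 12.75, 12.66, 12.72 and 12.63 in the rTFF2 cultures of mice 1 to 4, against 11.81, 11.84, 11.72 and 11.67 in the control cultures, with no overlap. *Sod2* rose by 0.93 (standard error 0.07), a 1.91-fold level (adjusted p = 3.3e-04 from limma), and this was the smallest adjusted p of the 19 probe sets. The second bright one (1448610_a_at) rose by 0.82 (standard error 0.09, adjusted p = 0.0010), at 12.70 ± 0.09 with rTFF2 and 11.88 ± 0.14 with GM-CSF alone (SD, n = 4 each). The third (1417194_at) was dim, at 3.83 to 4.20 in the rTFF2 cultures and 3.27 to 3.53 in the control cultures, where 3 of 4 arrays lay above background. It rose by 0.60 (adjusted p = 0.0030).

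*Cat*, which encodes the peroxisomal catalase that breaks down hydrogen peroxide, had small negative differences, and neither of its 2 probe sets passed. On its first probe set (1416429_a_at) the rTFF2 cultures of mice 1 to 4 had 11.75, 11.88, 11.77 and 11.51, against 12.03, 12.26, 11.70 and 11.79 in the control cultures. The difference was -0.22 (95% interval -0.43 to -0.01) and did not pass (adjusted p = 0.12), with 3 of 4 mice lower. The second probe set (1416430_at) gave -0.17 (95% interval -0.34 to 0.01, adjusted p = 0.16) and was lower in 4 of 4 mice. Mouse 2 had the lowest difference on both, -0.38 and -0.30.

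The members shared a pattern over mice, which the rule for choosing them does not mention. Among the control cultures, mouse 2 had the highest signal on 18 of 19 probe sets (94.7%), and on all 15 that lay above background on 8 arrays. Over the 12007 probe sets above background on 8 arrays, mouse 2 was highest in 35.3%. Among the rTFF2 cultures, mice 1 and 2 were each highest on 8 of 19, mouse 3 on 3 and mouse 4 on 0. On the 15 above background these counts were 6, 8, 1 and 0 for mice 1 to 4. Of all probe sets above background, mice 1 to 4 were highest in 24.1%, 30.2%, 15.4% and 30.3%. Mouse 2 also had the lowest difference with rTFF2 on 17 of 19 probe sets. Of those above background it was 13 of 15, beside 28.2% of all probe sets above background. The counts of highest control signals and of lowest differences use the same control array of mouse 2. Probe sets of 1 gene are also not independent, so all these counts are given without a test. Leaving out both cultures of mouse 2, 9 of the 19 probe sets were higher and 0 lower (12% and 10.2% of all probe sets in that fit), the paired *Nqo1* difference was 0.46 (adjusted p = 0.018), and those of *Gsr* on its 2 probe sets were 1.02 and 0.70 (adjusted p = 0.0020 and 0.0030). For *Sod2* the bright probe sets gave 0.97 and 0.91 without this mouse.

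**Figure D3:**
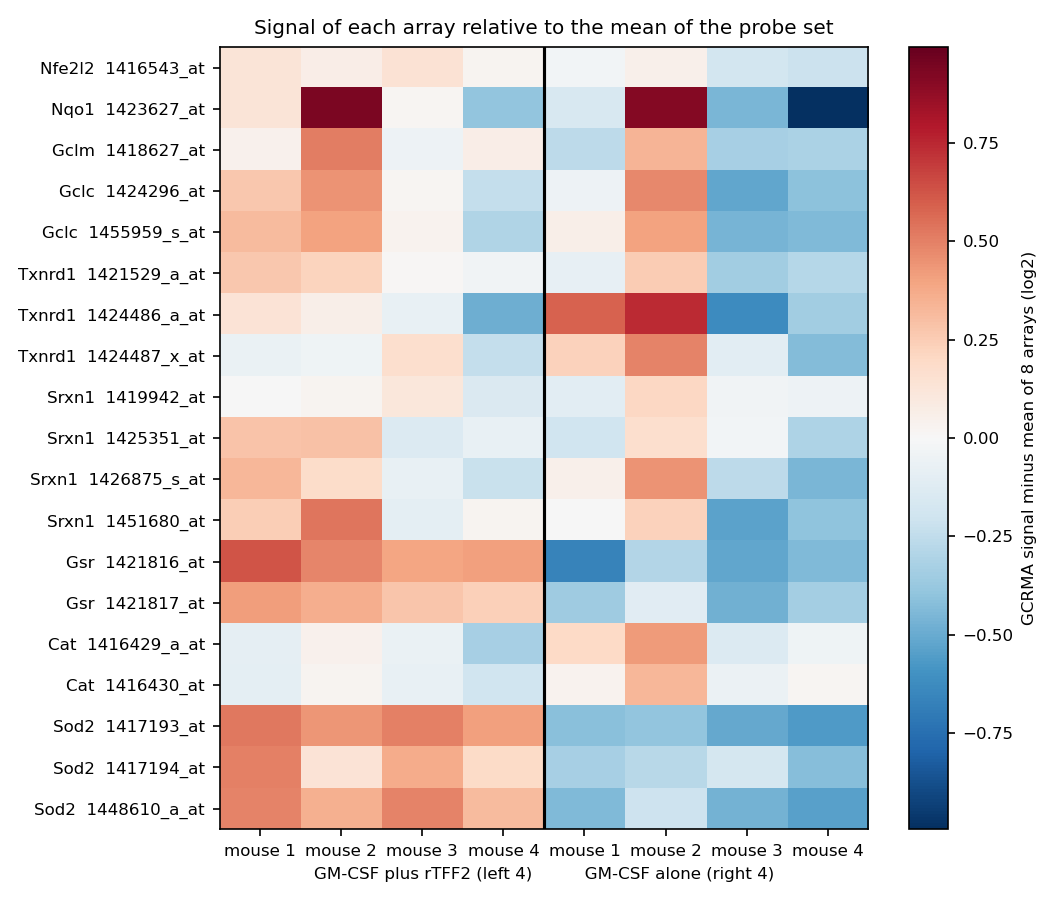
GCRMA signal of each array minus the mean of its probe set over 8 arrays (log2, colour), for the 19 probe sets in rows and the cultures of mice 1 to 4 in columns, GM-CSF plus rTFF2 left of the line and GM-CSF alone right of it. *Gsr* and *Sod2* part the groups, whereas *Nqo1*, *Gclm* and *Gclc* are redder in mouse 2 on both sides.

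The genes that act on NRF2 or beside it moved unevenly. Of 14 measured regulators and partners, 4 rose, 1 fell and 9 did not pass, with a median of 0.06. Over all genes by their brightest probe sets, 14.5% rose and 13.3% fell. *Nfe2*, which encodes the haematopoietic relative of NRF2 that binds the same type of element, rose by 1.21 (standard error 0.12, adjusted p = 8.5e-04 from limma), at 9.59, 9.43, 9.80 and 10.23 in the rTFF2 cultures of mice 1 to 4, against 8.40, 8.30, 8.92 and 8.58 in the control cultures. *Mafg*, a small MAF partner, rose by 0.87 (adjusted p = 9.1e-04). In the unpaired fit with the *Actb* measure described further on as a covariate, neither passed (*Nfe2* 0.96, adjusted p = 0.093, and *Mafg* 0.79, adjusted p = 0.077). *Bach1*, a repressor that competes with NRF2 for its elements, rose by 0.44 (adjusted p = 0.014, and 0.051 without the pairing), and *Sqstm1*, whose product p62 binds KEAP1, by 0.43 (adjusted p = 0.021). Both of these calls were lost when certain mice were left out of the paired fit. *Bach1* had an adjusted p of 0.062, 0.066 and 0.051 without mouse 1, 3 or 4, and *Sqstm1* of 0.082 and 0.067 without mouse 1 or 2. The single lower gene, *Maff* (-0.29, adjusted p = 0.043, and 0.26 without the pairing), was named after its value was seen. In the paired fit 0 regulators were lower without mouse 2, 3 or 4. *Keap1* stood at 6.88 ± 0.10 with rTFF2 and 6.91 ± 0.09 with GM-CSF alone (SD, n = 4 each, adjusted p = 0.78).

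Of 31 other measured NRF2 target genes, 9 rose, 2 fell and 20 did not pass, with a median of 0.14 beside -0.03 over all 12393 genes, of which 27.7% passed, 14.5% higher and 13.3% lower. By their brightest probe sets, 4 of the 9 member genes rose. Among those with the smallest adjusted p were 3 glutathione transferase genes. *Gstm1* rose by 1.30 (adjusted p = 0.0014), on a probe set whose suffix warns of binding to related transcripts, and the microsomal *Mgst2* and *Mgst1* rose by 0.68 and 0.52 (adjusted p = 0.0011 and 0.0030). With the *Actb* covariate *Mgst1* was at 0.25 and did not pass (adjusted p = 0.24). *Slc7a11*, the cystine importer that feeds glutathione synthesis, was named after its value was seen. It rose by 1.00 (standard error 0.15, adjusted p = 0.0034), at 9.81, 9.41, 9.21 and 9.05 in the rTFF2 cultures of mice 1 to 4, against 8.43, 8.97, 8.23 and 7.85 in the control cultures. The genes that fell were *Ephx1*, which encodes microsomal epoxide hydrolase (-1.98, adjusted p = 0.0016, with 2 of 4 rTFF2 arrays above background), and *Gss*, glutathione synthetase (-0.41, adjusted p = 0.022, named after its value was seen). *Gss* was dim too, at 3.97 to 4.06 in the rTFF2 cultures and 4.25 to 4.72 in the control cultures. With the offset on the linear scale, *Ephx1* was at -0.87 and did not pass (adjusted p = 0.061), and *Gss* did not pass either. Mouse 2 was highest among the controls for *Slc7a11* and *Gstm1*, lowest for *Mgst1* and *Ephx1*, and in between for *Mgst2* and *Gss*.

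*Hmox1*, which encodes the haem-degrading enzyme haem oxygenase 1 and is the best known NRF2 and BACH1 target in macrophages, did not pass. It had 7.61, 7.56, 7.86 and 7.76 in the rTFF2 cultures of mice 1 to 4, against 7.58, 5.75, 8.39 and 7.76 in the control cultures. The control culture of mouse 2 was the lowest of the 8 here, in contrast to the members. The difference of 0.33 (standard error 0.34, adjusted p = 0.52) did not pass, and it changed sign, to -0.21, in the unpaired fit without that array.

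Of 23 other enzymes that handle peroxide, superoxide and thiols, 4 rose and 9 fell (beside 14.5% and 13.3% of all genes), with a median of -0.13. Those with the smallest adjusted p were the stress-response genes *Sesn3* (-1.81, adjusted p = 0.0015, with 2 of 4 rTFF2 arrays above background, and -0.69 with the offset) and *Sesn2* (-0.57, adjusted p = 0.0038), the methionine sulfoxide reductase gene *Msra* (0.66, adjusted p = 0.0021) and *Prdx4*, the peroxiredoxin of the secretory pathway (-0.85, adjusted p = 0.0050). Besides *Msra* the genes that rose were *Glrx*, *Msrb1* and *Oxr1*, named after their values were seen. In the same way, *Sod1*, the cytosolic counterpart of *Sod2*, fell by 0.35 (adjusted p = 0.013), and *Prdx2* and *Prdx3* both fell by 0.30 (adjusted p = 0.016 and 0.019), each in 4 of 4 mice.

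**Figure D4:**
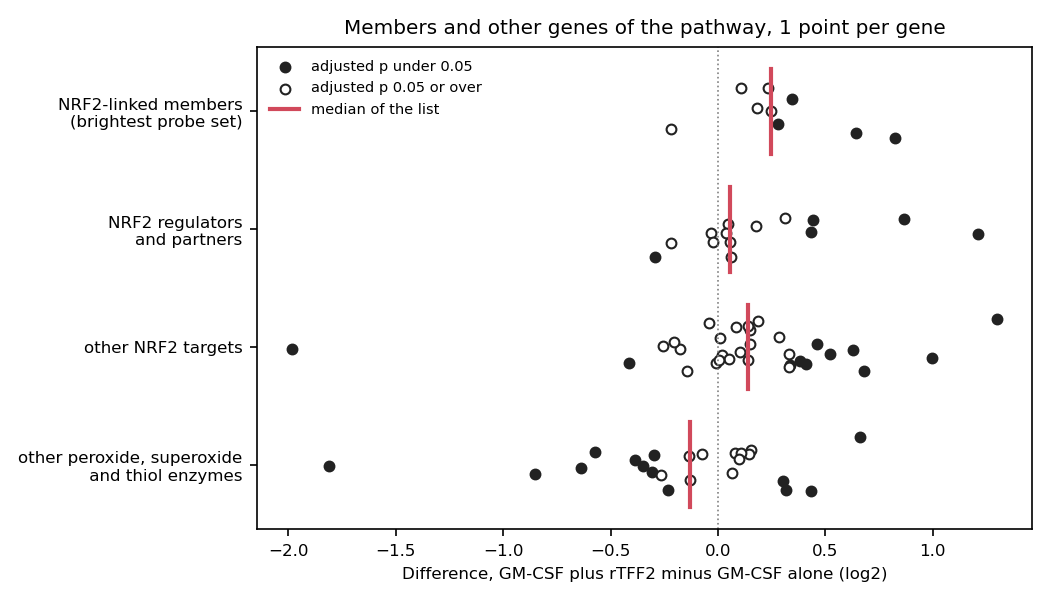
Difference in GCRMA signal (log2), rTFF2 minus control culture, of the 9 measured members and of 3 lists of other pathway genes, 1 point per gene by its brightest probe set, filled where the adjusted p was under 0.05, with a red line at the median of each list. The list medians were 0.06 for regulators, 0.14 for other targets and -0.13 for the other peroxide, superoxide and thiol enzymes.

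Several properties of the arrays moved with the groups, and their part in the members' differences was not tested. Array medians lay between 4.15 and 4.21 with rTFF2 and between 4.10 and 4.13 with GM-CSF alone, and after median centring 42.3% of all calls were higher, against 53.3% before. The 3′ to 5′ signal difference of *Actb*, a measure that is larger in degraded RNA, was 0.70 ± 0.05 with rTFF2 and 0.53 ± 0.09 with GM-CSF alone (SD, n = 4 each, two-sided exact permutation test over 70 divisions of the arrays, p = 0.029, the smallest they allow). It was higher in 4 of 4 mice, and exchanging labels within mice gave an exact permutation p of 0.13, the smallest that 16 arrangements allow. This measure did not overlap between the groups (0.66 to 0.74 with rTFF2, 0.42 to 0.62 with GM-CSF alone). A fit with it as a covariate therefore cannot tell RNA quality and rTFF2 apart, and the fit used also left out the pairing. With this covariate in the unpaired fit, 4 member probe sets passed as higher (5.37% of all probe sets), both of *Gsr* (1.07 and 0.85) and the bright pair of *Sod2* (1.05 and 1.00). The same fit gave larger differences that did not pass for *Nqo1* (1.09, adjusted p = 0.34), *Gclm* (0.59, adjusted p = 0.24) and *Srxn1* 1451680_at (0.83, adjusted p = 0.092). The myeloid marker *Itgam*, which encodes CD11b, was high in all cultures, at 12.72 ± 0.14 with rTFF2 and 12.35 ± 0.20 with GM-CSF alone (SD, n = 4 each), and *Tff2* was at background. *Itgam* passed as higher with rTFF2 (0.37, adjusted p = 0.010 from limma) and is counted among the macrophage markers below. Of 15 neutrophil markers 15 were higher with rTFF2, the log2 of their summed linear signals being 16.51 to 16.73 in the rTFF2 cultures and 15.22 to 16.12 in the control cultures. Mast cell and basophil markers were higher in 8 of 11 (sums 12.06 to 12.94 with rTFF2 and 7.72 to 9.01 with GM-CSF alone), with *Cma1*, *Mcpt4* and *Tpsb2* at background. Eosinophil markers were higher in 3 and lower in 1 of 6 (sums 12.11 to 13.41 with rTFF2 and 9.66 to 11.69 with GM-CSF alone), with *Il5ra* and *Ccr3* at background. Dendritic cell and MHC class II markers were lower in 13 of 14 (sums 13.17 to 13.79 with rTFF2 and 15.12 to 15.52 with GM-CSF alone). Macrophage markers were higher in 5 and lower in 3 of 15 (sums 15.49 to 15.65 with rTFF2 and 15.12 to 15.52 with GM-CSF alone). Most markers of other lineages were at background in every culture. Of 9 markers of erythroid cells, which are rich in catalase, 7 were at background, *Hba-a1* and *Gata1* among them. The 1 that passed as higher was *Gata1*, itself at background. Of 13 lymphoid markers of the T and NK lineages, 8 were at background, *Cd3d* and *Cd3e* among them. In this list 1 was higher and 2 were lower, including *Cd8a*, itself at background. The B lineage had 7 of 9 at background, with *Cd79a* and *Ms4a1*, and 1 higher. The stromal and endothelial list had 9 of 12 at background, 2 higher and 2 lower, and the lower ones, *Col1a1* and *Cdh5*, were among those at background.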

How the data were processed

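RNA of 8 cultures, 4 with GM-CSF plus rTFF2 and 4 with GM-CSF alone, was hybridized to Affymetrix Mouse Genome arrays, 1 per culture. The authors deposited log2 signals computed by GCRMA (background correction by probe base content, quantile normalization and probe set summary), with GCRMA 2.30.0 and affy 1.36.0 named in the submitters' processing notes. Quantile normalization forces similar distributions, so a shift shared by most genes would not be seen, and background correction shrinks or inflates differences of dim probe sets. Scanner files were not used here, and nothing was renormalized for the main results.

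Of 22690 probe sets, 64 controls were left out. Of the 22626 tested, the platform annotation gave 1 symbol to 20380, several to 691 and none to 1555. A gene in a list was represented by its brightest probe set (12393 genes). The background level of 3.37 was set at the 95th percentile of the signals of 43 genes that belong to unrelated tissues.

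Groups came from the sample titles. The labels give a control and an rTFF2 culture the same animal number and say that each mouse's cells were divided, so cultures were paired by mouse. Deviations from group means correlated at 0.04, 0.55, 0.32 and 0.40 for cultures of mice 1 to 4, over 12007 probe sets, and at -0.55 to 0.35 for cultures of different mice. In mice 2 and 4, but not in mice 1 and 3, both cultures correlated best with that of the same mouse, so the pairing rests on the labels and not on these values. The main test was limma 3.58.1 in R 4.3.3 (lmFit with mouse as a block, eBayes), with Benjamini-Hochberg adjustment over all probe sets tested and a threshold of 0.05. The methods name limma and no pairing for the arrays, so the fit without the replicate block was an alternative (4927 calls, 21.8% of probe sets, beside 5811). It ends the calls of *Nqo1*, *Gclm*, *Srxn1*, *Bach1* and some list genes. The fit was tested on simulated data. The other alternatives left out dim probe sets, a mouse or a single array, centred or quantile-normalized the arrays again, added 32 to the linear signals, weighted the arrays, made the prior trended and robust, took the *Actb* difference as a covariate, averaged the probe sets of a gene, or asked for an adjusted p under 0.01 or for more than a 2-fold change.

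The members, lists and tests were chosen with earlier results of these data known. Genes named beyond the members were *Keap1*, *Bach1*, *Hmox1* and the 4 genes of each pathway list with the smallest adjusted p among those that passed; others are marked in the text. Precision is limited by the number of arrays. P-values of the paired fit rest on how much the differences within mice vary over these 4 mice, a spread that eBayes draws towards that of other probe sets.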

Additional observations from a re-analysis of the deposited data

Results flagged for a closer look

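One value stood apart in a group of 4. The *Gclm* signal (1418627_at) in the control culture of mouse 2 was 11.34, and the next highest control culture had 10.75, a gap of 89.2% of the range of the group. Chance sets 1 sample apart in this way in about 1 of 20 groups, and 38 groups were examined. The same array was highest among the control cultures on 18 of 19 member probe sets.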

How the results depend on the processing

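Among 378 refits of the 19 member probe sets (20 alternatives, 19 for a pair of dim ones), 320 kept direction and side of the threshold, 41 lost the call, 2 gained it and 15 changed sign, none of which concerned a called probe set. Both *Gsr* probe sets and the bright *Sod2* pair passed in every one of them, and the dim *Sod2* probe set did not with the *Actb* covariate. Of 280 refits of 14 named pathway genes, 254 were unchanged, 21 lost the call and 5 changed sign. Where a call was lost, the cause was not tested. Without the replicate block, that is without pairing, 5 member probe sets were higher and 0 regulators lower. With the *Actb* covariate in the unpaired fit these were 4 and 0, with 1 regulator, 4 other targets and 2 other enzymes higher, 1 other target and 3 other enzymes lower, and 1216 probe sets higher and 1079 lower over all. The differences of *Txnrd1* (1424486_a_at and 1424487_x_at) then became 0.76 and 0.36, of *Srxn1* (1419942_at) 0.065, of *Cat* 0.072 and 0.0044, and of *Hmox1* -1.23. That *Srxn1* probe set was at 0.00086 after a second quantile normalization and 0.0078 with array weights. At an adjusted p under 0.01, 5 member probe sets were higher, and 1640 were higher and 1266 lower over all. Against a 2-fold change 0 member probe sets passed, and 81 were higher and 92 lower over all. The number of lower regulators was 0 with the offset and with the trended prior. With the offset 0 other targets were lower. With the offset, a second quantile normalization or median centring, 2 other enzymes were higher. When the probe sets of a gene were averaged, 4 other enzymes were higher and 6 lower.

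Leaving out a mouse in the paired fit or an array in the unpaired fit, the member count ran from 5 (in the paired fit, without mouse 3) to 9 (without mouse 2), higher probe sets over all from 1977 to 2741 and lower ones from 1544 to 2393, higher regulators from 2 to 5 and lower ones from 0 to 1, lower targets from 1 to 2, and other enzymes from 2 to 4 higher and 4 to 8 lower. The differences ran from -0.42 to 0.038 for *Txnrd1* 1424486_a_at, -0.25 to 0.060 for 1424487_x_at, -0.058 to 0.062 for *Srxn1* 1419942_at, -0.025 to 0.27 for 1426875_s_at, -0.077 to 0.0087 for *Keap1* and -0.21 to 0.67 for *Hmox1*. The *Actb* difference of 0.17 did not pass when labels were exchanged within mice, a test added after seeing the data (exact permutation p = 0.13). It ran from 0.12 to 0.20 without a mouse, and 3 arrays against 3 cannot reach the threshold (p = 0.1 in the exact permutation test). The background level was 2.92 at the 90th percentile and 5.02 at the highest value of its genes. Of the called probe sets, *Srxn1* 1451680_at and *Sod2* 1417194_at would not reach the latter. The 4 mice limit every value, and small differences such as that of *Nfe2l2* lie near what these arrays resolve.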
